A study of Mus musculus with 6 samples.

Results

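Differentiation of mouse osteoblasts in culture, without cabozantinib, was read from 4 of the 6 arrays of the series. Primary osteoblasts were taken from the calvaria, the flat bones of the skull, of CD1 mice aged 2 to 5 days. Undifferentiated osteoblasts (2 arrays) were grown to confluence in MEM with fetal bovine serum. Differentiated osteoblasts (2 arrays) were confluent cells kept for 30 days in the same kind of medium with ascorbic acid and β-glycerol phosphate, with no cabozantinib. The other 2 arrays, of osteoblasts kept in differentiation medium with cabozantinib, were used only in alternative fits. Both groups are mixed primary cultures of collagenase-digested bone and not a cloned line. Whether replicates came from separate cultures or animals is not stated in the sources used here, so that a p-value measures only the spread between these arrays, which may be technical. Time in culture and the medium differ together between the groups and cannot be told apart.

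An osteoblast first divides, then lays down a matrix of type I collagen, and at last mineralizes it. Genes for collagen and alkaline phosphatase are known to come early in this sequence, while osteocalcin and the genes of the osteocyte, the cell that becomes enclosed in bone, come late. Digests of newborn calvaria are known to hold other cells as well, among them macrophages, cartilage cells and fat cell precursors. The comparison asks which of these programs were gained and which were lost over the differentiation period.

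Cy3-labeled RNA was read on arrays with 39429 probes, 69.1% of which were matched to a gene through a RefSeq accession. All signals below are background-subtracted intensities on the log2 scale, relative to the 75th percentile of the array, so that 0 is the level of a fairly bright probe. A gene is read at its brightest probe, and levels are never compared between genes. Between 61.1% and 72.9% of the spots of an array were well above background and no spot was saturated. Replicate arrays correlated at 0.969 (undifferentiated) and 0.978 (differentiated), and their log2 signals differed with an SD of 0.846 and 0.716. The number of arrays limits the precision, with a median standard error of 0.51 for a log2 fold change.

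Of the 15917 genes with a RefSeq symbol that were tested, 1202 rose with differentiation (7.55%) and 971 fell (6.1%), which is 13.7% in all. Every count of list or family members below is to be set beside these shares. A gene was called to rise or fall where limma gave an adjusted p under 0.05. With unnamed transcripts included, 22700 genes were tested and 2834 were called (12.5%), 1443 higher (6.36%) and 1391 lower (6.13%). The smallest change called was 1.55 on the log2 scale, and the groups did not overlap for any called gene. The median of all named genes was 0.13. Leaving out differentiated replicate 2 gave 1893 calls and the other arrays left out gave between 2170 and 3504.

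**Figure D1:**
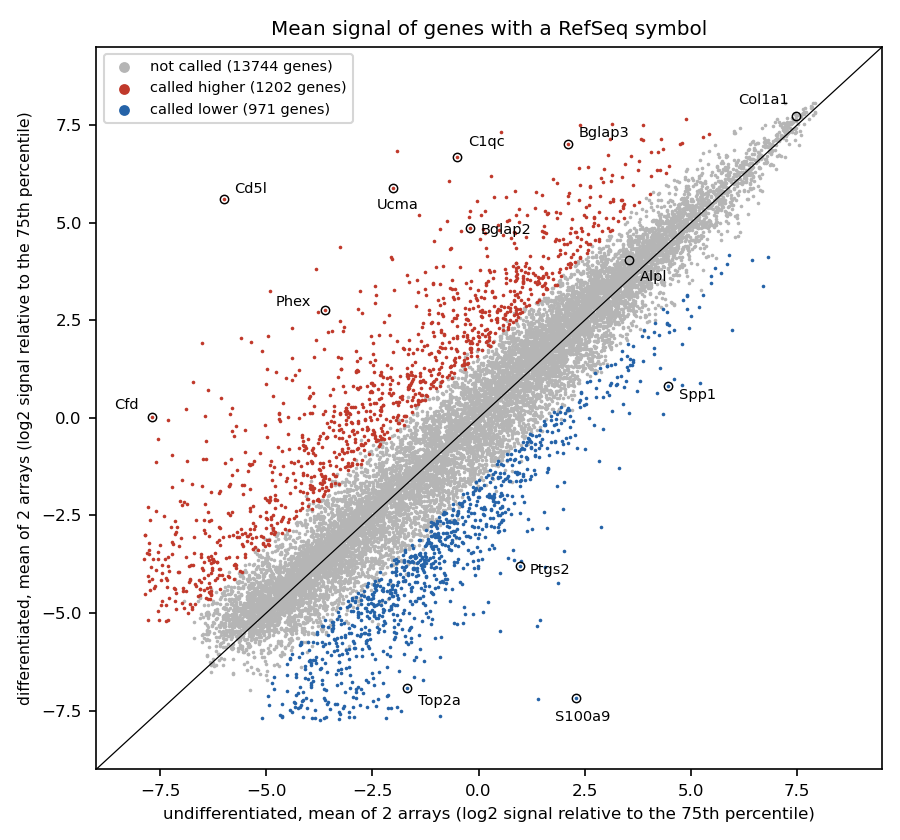
Mean log2 signal of the 15917 genes with a RefSeq symbol in undifferentiated (x axis) and differentiated (y axis) osteoblasts, 2 arrays each, relative to the 75th percentile of the array. Red points are the 1202 genes called higher, blue points the 971 called lower and gray points the rest. The line marks equal signal, and genes named in the text are circled, with Cd5l and S100a9 the farthest from it.

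The largest rises were in genes of several kinds. Gm525 had the largest rise among genes measured on all 4 arrays. Its signal was -1.50 and -2.35 in undifferentiated and 6.27 and 7.42 in differentiated osteoblasts. It rose 438-fold (log2 fold change 8.77, standard error 0.56, adjusted p = 5.76e-06 in limma). Ucma, a secreted protein of cartilage matrix, stood at -1.51 and -2.51 before and at 5.35 and 6.40 after, a 237-fold rise. Mia, a secreted protein of cartilage cells and melanoma, rose 110-fold. Itgax, the integrin chain CD11c of myeloid cells, gave nearly equal values within each group, -3.83 and -3.81 against 3.80 and 3.84, and rose 200-fold. C1qc, a chain of complement C1q, rose 146-fold and Wfdc17, a secreted protein with a WAP domain, 112-fold. Cd83, a surface protein of mature dendritic cells, rose 89.9-fold. Blnk, an adaptor of immune receptors, rose 97.1-fold. Cox8b, a subunit of cytochrome c oxidase, rose 111-fold, A530064D06Rik 105-fold, and Pcsk2, a convertase of prohormones, 200-fold. A second probe of Pcsk2 was at least 148-fold higher. The adjusted p of these genes in limma lay between 5.76e-06 and 1.92e-05. In bulk RNA a rise in the share of cells that express a gene and a rise in RNA per cell cannot be told apart.

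Other genes went from background to a clear signal, and their rise is a lower bound. Cd5l, a scavenger receptor protein secreted by macrophages, was well above background on neither undifferentiated array and gave 5.43 and 5.76 after differentiation. It was at least 2748-fold higher (adjusted p = 7.78e-07 in limma). Clec10a, a galactose-binding lectin of macrophages, was at least 254-fold higher, and Slco2b1, an organic anion transporter, at least 109-fold and at its second probe at least 164-fold. Matn3, a matrilin of cartilage, was at least 106-fold higher and Cfd, the complement factor D made by fat cells, at least 68.1-fold. The same held for Fcrl1, a relative of the Fc receptors (at least 78.2-fold), for the nucleoside transporter Slc28a2 (at least 74.1-fold) and for the receptor Gpr17 (at least 65.2-fold). In the opposite direction S100a9, a calcium-binding protein of neutrophils and monocytes, gave 2.90 and 1.70 in undifferentiated osteoblasts. It was at background on both differentiated arrays, at least 296-fold lower (adjusted p = 4.35e-06 in limma). Stfa1, a stefin that inhibits cysteine proteases, was at least 159-fold lower. Pitx1, a homeobox factor of the hindlimb, was at least 24.4-fold lower and Gss, the glutathione synthetase, at least 19.9-fold. Inka2, an inhibitor of the kinase PAK4, was at least 32.3-fold lower (at least 2.94-fold at a second probe), Cstdc4, a gene of the stefin cluster, at least 32.0-fold, and Rassf6, a protein with a Ras association domain, at least 23.8-fold. Each bound sets the bright group against, for each array that did not detect the gene, the higher of the gene's own signal and the lowest detectable signal.

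The genes that fell most while measured on all 4 arrays were of several kinds. Dynap, a dynactin-associated protein, gave 2.17 and 1.58 before and -4.21 and -4.24 after, a 68.6-fold fall (adjusted p = 1.74e-05 in limma). Ptgs2, the inducible cyclooxygenase, gave 0.21 and 1.73 before and -2.72 and -4.84 after. It fell 27.0-fold (adjusted p = 0.000719 in limma), with replicates farther apart than those of the other genes here. The cornified envelope genes Lce1g and Lce1i fell 51.5-fold and 42.0-fold, and the stefin Stfa3 33.6-fold. Gzme, a granzyme, fell 24.4-fold, Sema4f, a semaphorin, 29.7-fold, and Ang2, a ribonuclease of the angiogenin family, 22.6-fold. Cct3, a subunit of the cytosolic chaperonin, fell 25.5-fold, Atp6ap1, an accessory subunit of the proton pump, 22.3-fold, and Lrrc59, a membrane protein of the endoplasmic reticulum, 22.2-fold. The further probes differed between these genes. Gzme fell by 4.83 on the log2 scale at its second probe and Lce1i was at least 10.4-fold lower, but Lrrc59 had -0.05, which was not called. Lce1g, Lce1i, the stefins and Gzme have near copies in the genome that a probe may share.

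Bone matrix and mineral genes rose in part. Of the 24 tested, 11 rose, beside 7.55% of all named genes, and 1 fell, and their median was 1.31. The 11 were Phex, Bglap2, Bglap3, Omd, Dmp1, Bmp3, Smpd3, Mepe, Ogn, Ibsp and Mgp. Bglap2, an osteocalcin gene, gave -0.08 and -0.32 in undifferentiated and 5.13 and 4.59 in differentiated osteoblasts. It rose 33.4-fold (log2 fold change 5.06, standard error 0.49, adjusted p = 4.35e-05 in limma). Bglap3, its near copy, gave 2.88 and 1.35 before and 6.83 and 7.23 after and rose 30.1-fold at its brightest probe, and a second probe rose by 5.15. Because the osteocalcin genes are nearly identical, these probes may share signal, and no probe was matched to Bglap itself.

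Among the late genes, Phex, an endopeptidase of osteoblasts and osteocytes that acts on phosphate balance, was low on both undifferentiated arrays (-3.96 and -3.27) and high on both differentiated arrays (2.95 and 2.58). It rose 83.3-fold (adjusted p = 1.62e-05 in limma). Dmp1, an acidic phosphoprotein of the osteocyte, gave -4.31 and -5.16 before and -1.28 and -0.20 after, a 15.9-fold rise. Mepe, another osteocyte phosphoprotein, rose 5.41-fold. Omd, the keratan sulfate proteoglycan osteomodulin, rose 21.0-fold. Ogn, the related osteoglycin, rose 4.73-fold. Of the 14 osteocyte genes tested 5 rose and 0 fell, and their median was -0.13. Beside Phex, Dmp1 and Mepe these were Dkk1, a Wnt antagonist (10.6-fold) and Fbln7, a fibulin (9.80-fold). Sost, the osteocyte antagonist of Wnt, showed a log2 change of -0.52 (adjusted p = 0.663 in limma).

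Genes of the early matrix were not called or moved otherwise. Col1a1 and Col1a2, the chains of type I collagen, had log2 fold changes of 0.24 and 0.27, and Sparc, the matrix protein osteonectin, 0.20, with adjusted p values between 0.906 and 0.937 in limma. For all 3 genes the ranges of the groups overlapped, with Col1a1 at 8.23 and 6.72 before and at 7.38 and 8.06 after. This order of the 4 arrays was not particular to matrix genes. Rplp0, a bright ribosomal protein gene, had it too, at 8.12 and 6.69 before and 7.11 and 7.69 after. Alpl, the alkaline phosphatase of bone, gave 3.87 and 3.23 before and 3.96 and 4.12 after. Its groups did not overlap, and its log2 fold change of 0.50 had an adjusted p of 0.698. Spp1, the matrix protein osteopontin, moved against the list. It gave 3.64 and 5.31 before and 1.20 and 0.41 after and fell 12.7-fold (adjusted p = 0.00139 in limma). This call was lost with the authors' deposited values and with all 6 arrays in the fit, with an adjusted p of up to 0.0689. Ibsp, the bone sialoprotein, rose 4.61-fold (adjusted p = 0.00922), while its second probe had a log2 fold change of 1.62 that was not called. Without differentiated replicate 2 the adjusted p of Ibsp was 0.0881 and that of Ogn 0.0554, and Smpd3, a sphingomyelinase needed for mineralization, had 0.13. Mgp, the matrix Gla protein that inhibits calcification, rose 4.42-fold, with an adjusted p of 0.0761 without differentiated replicate 1.

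**Figure D2:**
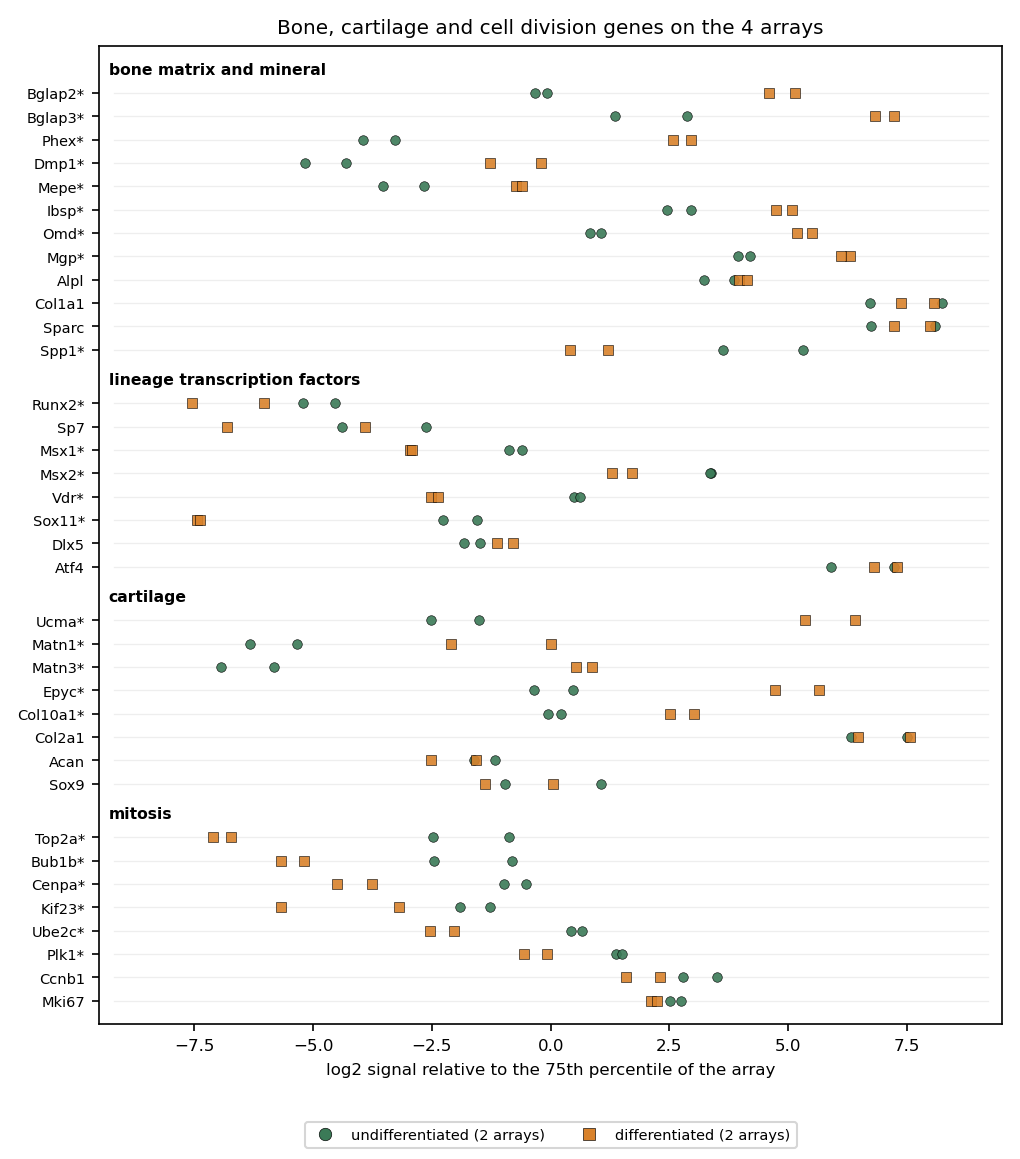
Log2 signal relative to the 75th percentile of the array (x axis) of bone, cartilage and cell division genes, 1 gene per row. Green circles are the 2 undifferentiated and orange squares the 2 differentiated arrays, and an asterisk marks genes called in limma. Bglap2, Phex, Dmp1 and Ucma lie apart and higher after differentiation, Col1a1, Col2a1 and Sox9 overlap, and Spp1, Vdr, Sox11 and Top2a lie lower.

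The labelled cell type was read from its defining markers. Col1a1, Col1a2, Sparc, Alpl, Spp1, Ibsp and Bglap2 were well above background on all 4 arrays, while the markers Runx2 and Sp7 were not. Transcription factors of the lineage fell in part. Of the 17 tested, 0 rose and 6 fell, beside 6.1% of all named genes, and their median was -1.03. Summed over the list, the signal was 7.77 and 6.93 (log2) before and 7.29 and 7.70 after, with overlapping groups. Such sums, here and below, add linear intensities, so the brightest members weigh most. The sum of 11 reference genes overlapped too, at 10.29 and 9.24 before and 9.49 and 10.07 after. An overlap of sums therefore does not show that the members of a list were unchanged. Sox11, a factor of skeletal progenitors, gave -1.55 and -2.27 before and was at background on both differentiated arrays, at least 16.0-fold lower (adjusted p = 2.98e-05 in limma). Vdr, the vitamin D receptor, gave 0.49 and 0.61 before and -2.52 and -2.37 after, a 7.97-fold fall (adjusted p = 0.00108). Msx1, a homeobox factor of calvarial growth, fell 4.62-fold and Fosl1, an AP-1 subunit, 6.15-fold. Runx2, the master factor of the osteoblast, gave -4.54 and -5.21 before and was at background on both differentiated arrays, at least 1.97-fold lower (adjusted p = 0.0467). This call was lost without undifferentiated replicate 1 (log2 fold change -1.58) and without differentiated replicate 1 (-1.17). Runx2 was called in only 5 of the 15 limma alternatives that tested it. With no filter on dim probes, another Runx2 probe with a higher mean signal was read, and its log2 fold change was 0.142. Sp7, the factor osterix, had a log2 fold change of -1.84 and overlapping groups (adjusted p = 0.209).

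Of the 15 cartilage genes tested 8 rose and 1 fell, and the median was 1.81. Those that rose were matrix proteins of cartilage. Epyc, a leucine-rich proteoglycan of the growth plate, gave -0.34 and 0.47 before and 5.66 and 4.73 after and rose 35.0-fold (adjusted p = 7.21e-05 in limma). Matn1 rose 27.5-fold and Matn4 23.8-fold, both matrilins, and the second probe of Matn4 was also called, with a log2 fold change of 2.27. Col10a1, the collagen of hypertrophic cartilage, gave 0.23 and -0.05 before and 3.01 and 2.52 after, a 6.39-fold rise. Some other markers of the chondrocyte were not called. Col2a1, the main cartilage collagen, Acan, the proteoglycan aggrecan, and Sox9, the master factor, had log2 fold changes of 0.11, -0.66 and -0.72 with adjusted p values between 0.574 and 0.97 in limma, and the 2 groups overlapped for Col2a1, Acan and Sox9. The summed signal of the 15 genes was 7.84 and 6.92 (log2) before and 7.62 and 8.19 after. The groups overlapped, as they did for the sum of the reference genes. Prg4, the joint lubricant lubricin, fell 7.46-fold, and its second probe, at background after differentiation, was at least 6.27-fold lower.

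Markers of macrophages were among the genes that rose. Of the 21 tested 11 rose and 0 fell, and the median was 2.34. C1qc gave -0.03 and -0.97 in undifferentiated and 6.36 and 7.01 in differentiated osteoblasts. Mrc1, the mannose receptor, gave -0.05 and 0.76 before and 5.96 and 5.37 after and rose 39.7-fold (adjusted p = 4.46e-05 in limma). Adgre1, the F4/80 antigen, rose 16.4-fold, with 1.93 on the log2 scale at its second probe, which was not called. Tyrobp, an adaptor of myeloid receptors, rose 8.73-fold. Csf1r, the receptor that macrophages need to survive, gave 5.02 and 3.58 before and 6.74 and 7.54 after and rose 7.15-fold (adjusted p = 0.00552), while its 2 dimmer probes had log2 fold changes of 0.29 and -0.17, and with the probes averaged Csf1r was not called (adjusted p = 0.272). The undifferentiated cultures already held these transcripts. The summed signal of the 21 markers was 6.83 and 6.33 (log2) before and 9.50 and 9.98 after. Cd14, the coreceptor for lipopolysaccharide, and Lyz2, the lysozyme of myeloid cells, had log2 fold changes of 1.30 and -1.28 and were not called. C1qa and Cd163 were well above background on no array, Spi1, the master factor of myeloid cells, on 1, and no probe was matched to Cd68. The part that macrophages have in the changes of other genes was not tested.

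Osteoclasts, which resorb bone and arise from the macrophage lineage, showed 3 called genes of 15 tested, 3 higher and 0 lower, with a median of 0.45. Atp6v0d2, a proton pump subunit needed for osteoclast fusion, gave -2.17 and -1.84 before and 3.33 and 3.22 after and rose 38.8-fold (adjusted p = 3.08e-05 in limma), and its second probe rose by 5.45. Acp5, the tartrate-resistant acid phosphatase, rose 10.1-fold and by 3.29 on the log2 scale at its second probe. Dcstamp, a fusion protein of osteoclasts and dendritic cells, rose 4.96-fold, with an adjusted p of 0.0846 without differentiated replicate 2. Ctsk, the collagen-degrading cathepsin K, showed a log2 change of 1.49 (adjusted p = 0.0776). Nfatc1, the master factor of the osteoclast, had a log2 fold change of -0.08, and Calcr, the calcitonin receptor, was at background on all 4 arrays. The summed signal of the list was 6.02 and 5.48 (log2) before and 7.25 and 7.68 after.

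Of 12 genes through which osteoblasts act on osteoclasts 2 rose and 1 fell, beside 7.55% and 6.1% of all named genes. Their median was -0.15. Tnfsf11, the ligand RANKL, gave -0.94 and 0.53 before and -1.49 and -1.91 after, with a log2 fold change of -1.49 (adjusted p = 0.119 in limma). Tnfrsf11b, its decoy receptor osteoprotegerin, gave 1.69 and 3.62 before and 2.64 and 0.86 after, with overlapping groups and a log2 fold change of -0.90 (adjusted p = 0.569). Both were called lower without undifferentiated replicate 1, Tnfsf11 at -2.23 and Tnfrsf11b at -1.87 (adjusted p = 0.0257), whereas without undifferentiated replicate 2 Tnfrsf11b had 0.06. Csf1, the ligand of Csf1r, showed a log2 change of -1.32 (adjusted p = 0.106). Cxcl12, a chemokine of marrow stroma, rose 8.43-fold and by 2.61 on the log2 scale at its second probe. Il6, the inflammatory cytokine, gave -1.65 and -0.40 before and -4.24 and -5.19 after, a 12.9-fold fall (adjusted p = 0.000909).

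Of 21 complement genes tested 14 rose and 0 fell, and the median of 2.60 stood beside 0.13 for all named genes. C1qc belongs to the recognition step, C4b (36.5-fold) and C3 (13.2-fold) to the central cleavage steps, and Cfd and Cfb (8.52-fold) to the alternative pathway. C3 gave -0.19 and -0.84 before and 2.82 and 3.59 after (adjusted p = 0.00046 in limma), and its second probe was called as well at 1.61. Clu, the regulator clusterin, rose 6.06-fold. The receptors C5ar1 and C3ar1, which leukocytes carry, rose 8.92-fold and 6.85-fold. C4b has a near copy that its probe may share.

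Chemokines and inflammatory mediators moved both ways. Of 26 tested 10 rose and 5 fell, with a median of 1.04. Ccl6, a chemokine of myeloid cells, gave 0.19 and 0.12 before and 5.38 and 5.24 after and rose 35.6-fold (adjusted p = 3.36e-05 in limma). Ccl8 rose 29.1-fold, Ccl3 26.6-fold and Ccl4 21.9-fold, all ligands that draw monocytes. Without differentiated replicate 2 the number that rose was 6. Beside Ptgs2 and Il6 the genes that fell were Saa3, Cxcl14 and Ccl7. Saa3, an acute phase apolipoprotein, gave 1.15 and 0.47 before and -4.34 and -2.43 after, an 18.3-fold fall (adjusted p = 0.000728). Cxcl14, a chemokine of skin and stroma, fell 5.21-fold and Ccl7, another monocyte chemokine, 5.29-fold (adjusted p = 0.278 in limma without differentiated replicate 2).

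**Figure D3:**
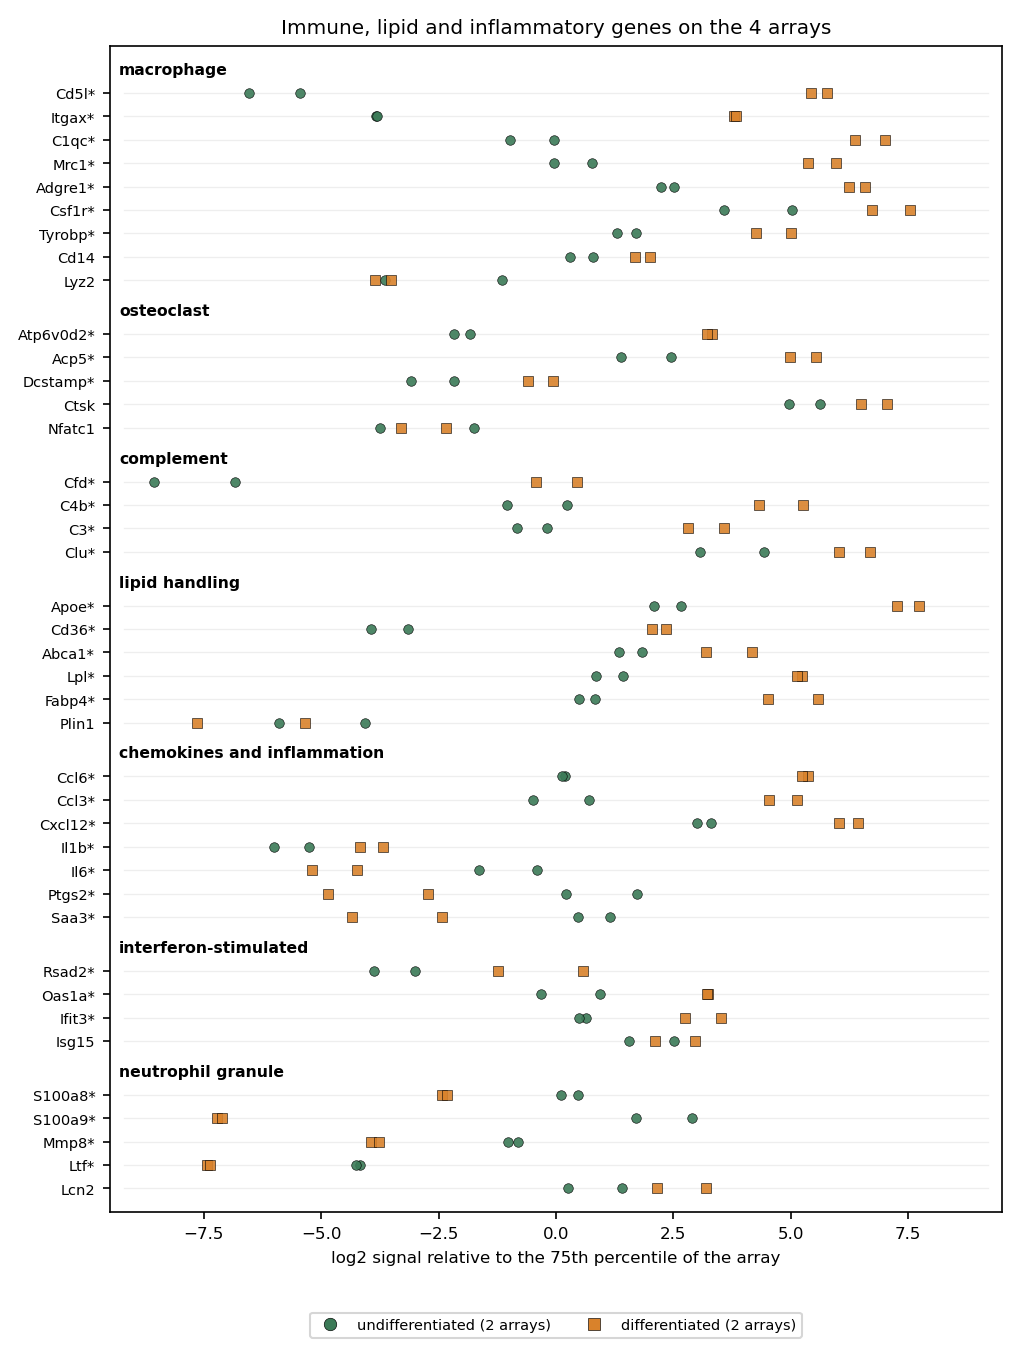
Log2 signal relative to the 75th percentile of the array (x axis) of immune, lipid and inflammatory genes, 1 gene per row. Green circles are the 2 undifferentiated and orange squares the 2 differentiated arrays, and an asterisk marks genes called in limma. Cd5l, C1qc, Mrc1 and Apoe lie higher after differentiation, while Il6, Ptgs2, Saa3 and S100a9 lie lower.

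Interferon-stimulated genes were another set in which all called members rose. Of 20 tested 7 rose and 0 fell, and the median was 1.32. Without differentiated replicate 1 the number that rose was 3. Rsad2, the antiviral protein viperin, gave -3.87 and -3.01 before and 0.58 and -1.22 after and rose 8.69-fold (adjusted p = 0.00481 in limma). The call of Rsad2 was lost with quantile normalization, the authors' deposited values, normexp background correction or no filter on dim probes. The adjusted p in limma was then up to 0.157. Oasl2, a relative of the oligoadenylate synthetases, rose 7.38-fold. Oas1a, an oligoadenylate synthetase with near copies, rose 7.51-fold, with a log2 fold change of 0.76 at its second probe. Ifit3, an antiviral protein with tetratricopeptide repeats, gave 0.65 and 0.50 before and 3.52 and 2.74 after and rose 5.90-fold (adjusted p = 0.00425, and 0.0519 without differentiated replicate 1). Isg15, the ubiquitin-like modifier, had a log2 fold change of 0.50 and was not called. The differentiated arrays were above the undifferentiated ones for 14 of the 20, beside 28% of all named genes.

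Interferon acts through the interferon-stimulated response element, a sequence that the factor ISGF3 binds. TTTC, any 2 bases and TTTC again were searched on both strands in the 250 bases before each start site (RefSeq promoters, build GRCm38.p6). They were found for 4 of the 6 genes called higher that had a promoter sequence (Gbp3, whose call was lost without any 1 of the 4 arrays with an adjusted p in limma of up to 0.261, and Ifit3, Oas1a and Rsad2) and for 9 of the 16 tested, beside 3.46% of 27025 genes with a promoter. A match is a description of these letters and not of binding. Members of the list were picked as interferon-stimulated genes, so a share above that of all genes says nothing about their rise here. The promoters of Ifit3 and Rsad2 are shown because they held the letters and their genes rose, with matches in capitals and read 5′ to 3′ on the strand of the gene. The matches of Ifit3 began 156 and 122 bases before the start and that of Rsad2 120 bases before it, and none overlapped another motif searched.
Ifit3, chr19:34583279-34583528, plus strand: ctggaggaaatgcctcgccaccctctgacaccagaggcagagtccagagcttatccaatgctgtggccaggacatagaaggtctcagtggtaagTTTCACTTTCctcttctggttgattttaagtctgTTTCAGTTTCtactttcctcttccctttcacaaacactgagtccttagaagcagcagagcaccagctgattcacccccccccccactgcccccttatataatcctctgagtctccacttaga
Rsad2, chr12:26456453-26456702, minus strand: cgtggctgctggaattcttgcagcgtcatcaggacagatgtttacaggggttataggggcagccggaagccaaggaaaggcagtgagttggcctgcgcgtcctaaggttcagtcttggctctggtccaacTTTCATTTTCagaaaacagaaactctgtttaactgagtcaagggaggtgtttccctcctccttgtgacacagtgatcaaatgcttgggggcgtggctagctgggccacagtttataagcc

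The same search was made for the motifs of other lists. TGTGGT, the core that Runx factors bind, was in 3 of the 7 promoters of bone matrix genes called higher (Dmp1, Mepe and Ogn) and in 6 of the 17 tested, beside 15.9% of all genes. GAGGAAGT, a core bound by PU.1, the product of Spi1, was in 1 of 8 promoters of macrophage genes called higher, that of C1qc, beside 2.79% of all genes. In all 5 motifs were searched, and CCAAT and TTTGAA are given with the cell division genes below.

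Genes of lipid transport and of fat cells rose in part. For cholesterol efflux and lipid transport, 9 of 13 genes tested rose and 0 fell, with a median of 2.57. Apoe, the apolipoprotein secreted by macrophages, gave 2.67 and 2.10 before and 7.26 and 7.74 after and rose 34.7-fold (adjusted p = 4.52e-05 in limma). Abcg1, a cholesterol exporter, rose 19.7-fold, and Cd36, a fatty acid and lipoprotein scavenger, 53.5-fold. Lpl, the lipoprotein lipase, gave 0.86 and 1.42 before and 5.25 and 5.14 after and rose 16.6-fold, with 0.87 on the log2 scale at its second probe. Of 15 fat cell genes 7 rose and 0 fell, with a median of 0.83. Fabp4, a fatty acid binding protein of fat cells and macrophages, rose 20.9-fold, and Adipoq, the fat cell hormone adiponectin, was at least 10.8-fold higher. Plin1, which coats the lipid droplet of mature fat cells, had a log2 fold change of -1.52 and was not called (adjusted p = 0.266). Cidec, another droplet protein, had 0.33 at its brightest probe, and a dimmer probe that was at background before differentiation was called and at least 4.54-fold higher. Cd36 and Lpl belong to both lists. The summed signal of the fat cell genes was 5.37 and 4.76 (log2) before and 6.71 and 7.11 after, and their part in other results was not tested.

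Wnt genes that rose were secreted modulators and receptors. Of the 37 tested 9 rose and 3 fell, and the median was -0.09. Sfrp4, a secreted Wnt antagonist, gave -0.99 and -0.83 before and 4.78 and 4.91 after and rose 54.0-fold (adjusted p = 2.05e-05 in limma). Sfrp2, of the same family, rose 6.32-fold, and Rspo3, a ligand that strengthens Wnt signals, 5.44-fold. Lgr5, the receptor for such ligands, gave 1.50 and 1.19 before and 5.65 and 5.91 after and rose 21.6-fold. Fzd9, a Wnt receptor of osteoblasts, rose 20.3-fold. Tcf7, Fzd7 and Sfrp1 fell, and each of these calls was lost with at least 1 array left out. Tcf7 went from -2.43 to -1.97 without differentiated replicate 2, and Fzd7 from -2.65 to -1.35 without undifferentiated replicate 2. Sfrp1 went from -2.84 to -1.68 without undifferentiated replicate 2 and to -1.69 without differentiated replicate 1. Of the limma alternatives that tested each gene, Tcf7 was called in 10 of 15, Fzd7 in 9 of 16 and Sfrp1 in 6 of 15.

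BMP and TGF-beta genes changed in both directions by large amounts. Of 35 tested 5 rose and 8 fell, beside 7.55% and 6.1% of all named genes, with a median of -0.43. Gdf10, a BMP-like ligand also called BMP3b, gave -0.30 and -0.09 before and 5.18 and 5.41 after and rose 45.1-fold (adjusted p = 2.56e-05 in limma). Chrdl1, a BMP antagonist, rose 41.6-fold and Bmp5, a ligand of skeletal growth, 9.38-fold. Grem1, a secreted BMP antagonist, was at least 7.11-fold lower. Bmpr1b, a BMP receptor of cartilage and bone, gave -1.87 and -2.27 before and was at background after, at least 14.3-fold lower (adjusted p = 2.96e-05). Inhba and Inhbb, the activin chains, fell 19.4-fold and 12.1-fold. In the IGF axis 4 of 14 genes rose and 2 fell, with a median of -0.53. Igfbp3, an IGF binding protein, was called lower, and so it was in 11 of the 15 limma alternatives that tested it. Igf1, the growth factor, gave 3.73 and 2.45 before and 6.84 and 7.46 after and rose 16.7-fold, and 2 of its 3 other probes rose by 4.27 and 4.73, while the dimmest was at 1.07. Leaving out either differentiated array cut the number of IGF genes that rose to 2.

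Cabozantinib, used on the other arrays of the series, inhibits the receptor kinases MET and VEGFR2, whose genes were read here in its absence. Met was dim, at -3.29 and -3.56 before and -3.57 and -3.34 after, with a log2 fold change of -0.03 (adjusted p = 0.992 in limma). Hgf, its ligand, rose 4.09-fold (adjusted p = 0.0183), but the adjusted p lay between 0.0715 and 0.0966 without undifferentiated replicate 1 or either differentiated array. Kdr, which encodes VEGFR2, gave 0.16 and -0.61 before and -0.40 and 0.11 after at its brightest probe (adjusted p = 0.976). Its second, dimmer probe was called, with a log2 fold change of 1.89 (adjusted p = 0.0214). The endothelial markers Pecam1 and Vwf had log2 fold changes of 0.52 and 0.75 and were not called, and the summed signal of 10 such markers overlapped between the groups. Of 10 endothelial markers tested 1 rose, beside 7.55% of all named genes. It was the cadherin Cdh5, with a log2 fold change of 2.18 (adjusted p = 0.0122). The call of Cdh5 was lost without either differentiated array, at an unchanged log2 fold change of 2.18. Of 5 T and B cell markers tested 1 rose, the T cell coreceptor Cd4, with a log2 fold change of 1.67 (adjusted p = 0.0386) at its brightest probe and 0.11 at its second. That call was lost without undifferentiated replicate 2 or either differentiated array, with adjusted p values of 0.126 to 0.295. The 5 signals summed to 1.01 and 0.54 (log2) before and 1.96 and 2.21 after, while Cd3d, Cd3g, Cd79b and Ms4a1 were at background on all 4 arrays. The part of these cells in other results was not tested.

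Of 17 prostaglandin and purine genes tested 9 rose and 2 fell, with a median of 1.83. Entpd1, the CD39 enzyme that degrades extracellular ATP, gave -4.84 and -4.70 before and 1.07 and 1.27 after and rose 61.5-fold (adjusted p = 1.74e-05 in limma). Ptgds, the synthase of prostaglandin D, rose 47.4-fold, and P2ry1, a receptor for ADP, 28.3-fold. The ATP receptor P2rx7 rose 6.90-fold. Both cyclooxygenases fell, Ptgs2 by 27.0-fold and Ptgs1 by 3.12-fold. The call of Ptgs1 was lost without undifferentiated replicate 1 or either differentiated array, with adjusted p values of 0.104 to 0.247 in limma.

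Collagens and the enzymes that shape them changed in both directions. Of 29 tested 7 rose and 4 fell, with a median of 0.35, and without differentiated replicate 2 these numbers were 3 and 1. Col14a1, a collagen bound to fibril surfaces, gave -1.05 and -1.08 before and 3.45 and 3.43 after and rose 22.7-fold (adjusted p = 7.53e-05 in limma), but its second probe had a log2 fold change of 0.05. Col24a1, a collagen of developing bone, rose 9.62-fold. Plod3, a lysyl hydroxylase of collagen, gave 2.23 and 1.75 before and -1.02 and -0.79 after and fell 7.44-fold. Loxl1, an enzyme of cross-linking, fell 5.15-fold, with an adjusted p of 0.063 without differentiated replicate 2. Among 21 matrix proteases and inhibitors 2 rose and 4 fell, beside 7.55% and 6.1% of all named genes, and 1 rose without undifferentiated replicate 2 or either differentiated array. Fap, a protease of activated fibroblasts, rose 11.8-fold, while Mmp2, a gelatinase, fell 7.48-fold and Plat, the tissue plasminogen activator, was at least 7.30-fold lower. Of 19 genes of integrins and focal adhesion 3 rose and 1 fell, with a median of -0.27. The gene that fell was Itga5, a chain of the fibronectin receptor, at 9.98-fold. Its call was lost with normexp background correction (adjusted p = 0.0597 in limma).

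Cell division genes fell in part. Of 28 mitosis genes tested 0 rose and 9 fell, beside 6.1% of all named genes, and the median was -1.41. The undifferentiated arrays were above the differentiated ones for 24 of the 28, beside 19.8% of all named genes. Top2a, the topoisomerase of dividing cells, gave -2.47 and -0.88 before and was at background after, at least 18.8-fold lower (adjusted p = 0.000103 in limma). Bub1b, a kinase of the spindle checkpoint, fell 13.9-fold, and Cenpa, the histone of the centromere, gave -0.98 and -0.53 before and -3.76 and -4.50 after, a 10.4-fold fall. Ube2c, the ubiquitin enzyme of mitotic exit, fell 7.11-fold, and its second probe fell by 3.53. Mki67, the antigen Ki-67, gave 2.75 and 2.52 before and 2.12 and 2.24 after, with a log2 fold change of -0.45 (adjusted p = 0.722). Ccnb1, cyclin B1, and Birc5, survivin, had -1.20 and -1.02 at their brightest probes and were not called there, but dimmer probes of both were called lower, that of Ccnb1 at -3.20 and that of Birc5, at background after, at least 17.3-fold. Of 30 DNA replication genes 0 rose and 4 fell, with a median of -0.44, and Pcna, the sliding clamp, had a log2 fold change of 0.64. Leaving out either differentiated array, the replication genes that fell numbered 2.

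Promoters of mitosis genes are known for CCAAT boxes, which bind NF-Y, and for the CHR element TTTGAA. On both strands of the 250 bases before the start, CCAAT was in 8 of the 9 promoters of mitosis genes called lower and in 19 of the 24 tested, beside 37.5% of all genes with a promoter. TTTGAA was in 2 of the 9 (Top2a and Ube2c) and in 8 of the 24, beside 18.3%. The promoters of Ube2c, Top2a and Cenpa are shown with CCAAT, or ATTGG where the match was on the other strand, in capitals. Ube2c and Top2a each held 6 matches and Cenpa 2. A pair of matches of Ube2c on opposite strands overlap each other, and no match overlapped another motif searched.
Ube2c, chr2:164769679-164769928, plus strand: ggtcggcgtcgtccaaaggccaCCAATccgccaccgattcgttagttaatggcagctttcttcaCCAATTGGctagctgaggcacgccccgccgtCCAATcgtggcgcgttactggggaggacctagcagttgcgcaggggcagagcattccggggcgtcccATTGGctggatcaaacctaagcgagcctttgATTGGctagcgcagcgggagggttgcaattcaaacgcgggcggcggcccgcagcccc
Top2a, chr11:99024190-99024439, minus strand: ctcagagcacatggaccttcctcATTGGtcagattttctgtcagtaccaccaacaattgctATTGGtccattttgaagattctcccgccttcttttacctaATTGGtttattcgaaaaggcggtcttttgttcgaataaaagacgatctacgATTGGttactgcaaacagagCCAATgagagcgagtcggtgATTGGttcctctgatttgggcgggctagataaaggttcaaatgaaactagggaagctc
Cenpa, chr5:30666636-30666885, plus strand: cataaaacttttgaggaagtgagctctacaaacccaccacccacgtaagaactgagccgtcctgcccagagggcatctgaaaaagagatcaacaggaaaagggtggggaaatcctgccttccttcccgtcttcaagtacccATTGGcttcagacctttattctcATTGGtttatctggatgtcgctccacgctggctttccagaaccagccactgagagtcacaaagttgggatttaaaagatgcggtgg

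Genes of growth and of cell tension also fell in part. Of 23 genes of ribosome biogenesis 0 rose and 4 fell, among them Myc, a transcription factor of cell growth, which gave -1.56 and -0.28 before and -3.55 and -3.88 after (6.91-fold, adjusted p = 0.00418 in limma). Of 25 genes of glycolysis and the response to low oxygen 1 rose and 5 fell. Pfkl, a phosphofructokinase, fell 13.4-fold and Pkm, the pyruvate kinase, 5.59-fold, while Tpi1, the triose phosphate isomerase, fell by 2.35 and 4.25 on the log2 scale at its 2 probes. Of 14 targets of SRF and YAP, factors that respond to tension, 0 rose and 4 fell, with a median of -0.75. With quantile normalization 1 rose and 3 fell. Both differentiated arrays were above both undifferentiated ones for 5 of the 14 and below them for 5. The shares of all named genes were 28% and 19.8%. Ankrd1, a repeat protein induced by stretch, gave -0.04 and 0.30 before and -2.71 and -2.28 after, a 6.19-fold fall. Of the ribosomal proteins, 0 of 23 were called in limma at their brightest probes, with a median of 0.10, and 1 had an unadjusted p under 0.05.

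The list of neutrophil granule genes also holds S100a8 and S100a9, which are not granule proteins. Of its 8 genes tested 0 rose and 4 fell, with a median of -1.87. S100a8, the partner of S100a9, gave 0.47 and 0.11 before and -2.42 and -2.31 after, a 6.31-fold fall (adjusted p = 0.00258 in limma). Mmp8, the neutrophil collagenase, fell 7.66-fold, and Ltf, lactoferrin, was at least 3.25-fold lower. Lcn2, a lipocalin that osteoblasts and macrophages also make, showed a log2 change of 1.85 (adjusted p = 0.051). The summed signal of the list was 4.10 and 3.22 (log2) before and 3.11 and 3.85 after, with overlapping groups. After differentiation S100a8 and S100a9 were a small part of this sum, which came mostly from other members. No probe was matched to Ly6g, and Ngp was at background on all 4 arrays.

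Over the 45 lists the medians ran from complement, cholesterol efflux and macrophage markers at the high end to neutrophil granules and mitosis at the low end. Lists with many members close to 0 included oxidative phosphorylation (median 0.17, 0 of 29 rose and 2 fell) and the endoplasmic reticulum chaperones (median 0.38, 1 of 19 rose).

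**Figure D4:**
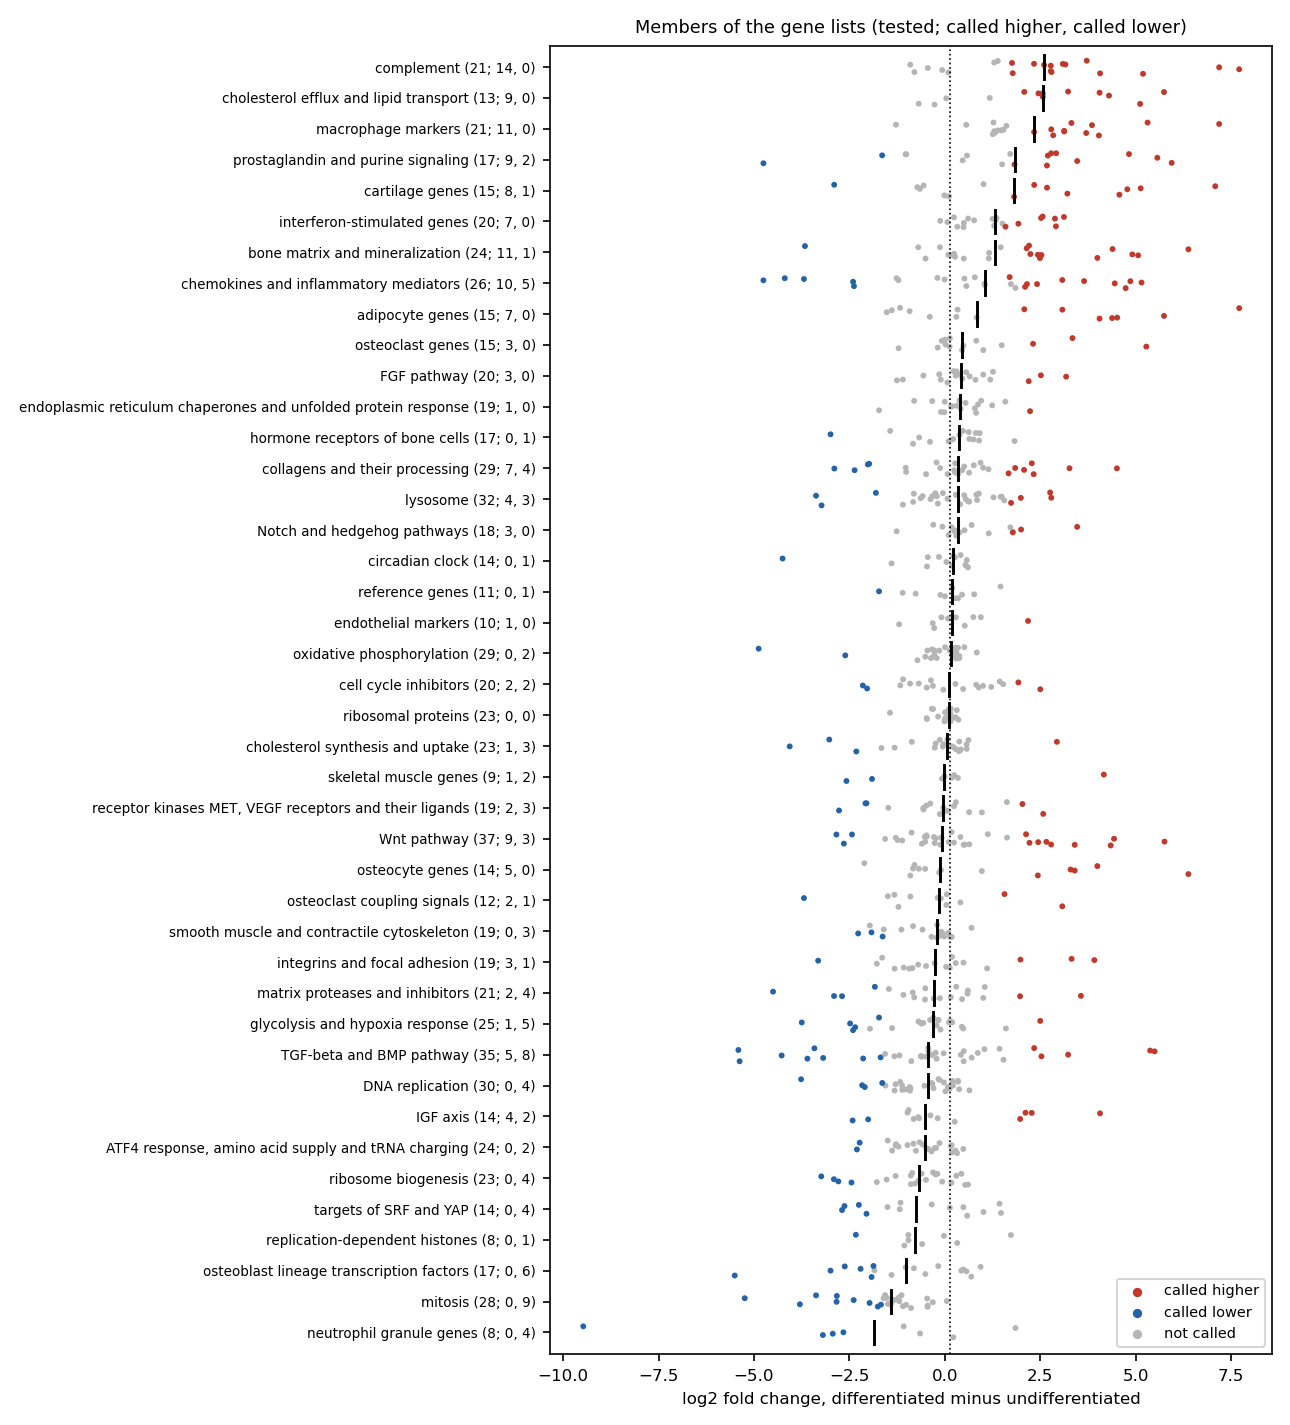
Log2 fold change (differentiated minus undifferentiated, x axis) of the members of each gene list with at least 8 genes tested, in order of the list median. Points are genes, red where called higher, blue where called lower and gray where not called, and the black bar is the median of the list. The dotted line is the median of all named genes at 0.13, and complement, cholesterol efflux and macrophage markers lie farthest to its right.

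Where a gene had several probes, these gave a further reading of the same arrays. Among the 3276 named genes with at least 2 probes, all probes pointed in 1 direction for 1933 (59%). At least 1 probe was called higher and none lower for 292 genes, at least 1 lower and none higher for 484, and probes were called in both directions for 3. For the 208 genes whose brightest probe was called higher, 36.1% of the 230 other probes were called higher too, beside 6.08% of all probes tested. For the 117 genes whose brightest probe was called lower, 40.2% of the 127 other probes were called lower, beside 6.98% of all probes. Probes of a gene share the RNA sample and are not replicates.

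Genes not called at their brightest probe were less even. Of their 3465 other probes 386 were called lower (11.1%) and 88 higher (2.54%). Gapdh, the glycolytic enzyme used as a reference gene, shows this. Its brightest of 7 probes gave 8.72 and 7.04 before and 7.39 and 8.15 after, with a log2 fold change of -0.12 (adjusted p = 0.97 in limma). The fourth in brightness gave 4.41 and 3.98 before and -1.60 and -0.37 after, and fell by 5.18 (adjusted p = 7.35e-05). Ldha, lactate dehydrogenase, had log2 fold changes of 0.11 and 0.08 at 2 probes and was at background after differentiation at the other, which was at least 81.3-fold lower. Actg1, the cytoplasmic actin, had values between 0.27 and -4.62 over 5 probes. Rpl7a, a ribosomal protein, had 3 probes between 0.03 and 0.17 and a dimmer probe that fell by 5.46. H13, a signal peptide peptidase, and Trnau1ap, a tRNA-binding protein, had the same kind of spread.

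Among the 13 ribosomal protein genes with further probes, 6 had a dimmer probe called lower, while 0 of 23 brightest probes were called. The same was seen for 3 of the 6 mitosis genes and 4 of the 7 glycolysis genes that were not called at their brightest probe. The share of calls that were higher differed with brightness. In the brightest of 6 bins of equal size 81.4% of the called genes were higher, in the second dimmest bin 37.6% and in the dimmest 48.7%. The dimmer probe of a gene stood below the brightest by a median of 2.65 and 2.43 (log2) on the undifferentiated arrays and by 2.89 and 2.96 on the differentiated arrays. Where probes lie along a transcript is not used here, and its part in these values was not tested. Genes called lower at a dim probe, those of division and glycolysis included, are to be read with these values.

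**Figure D5:**
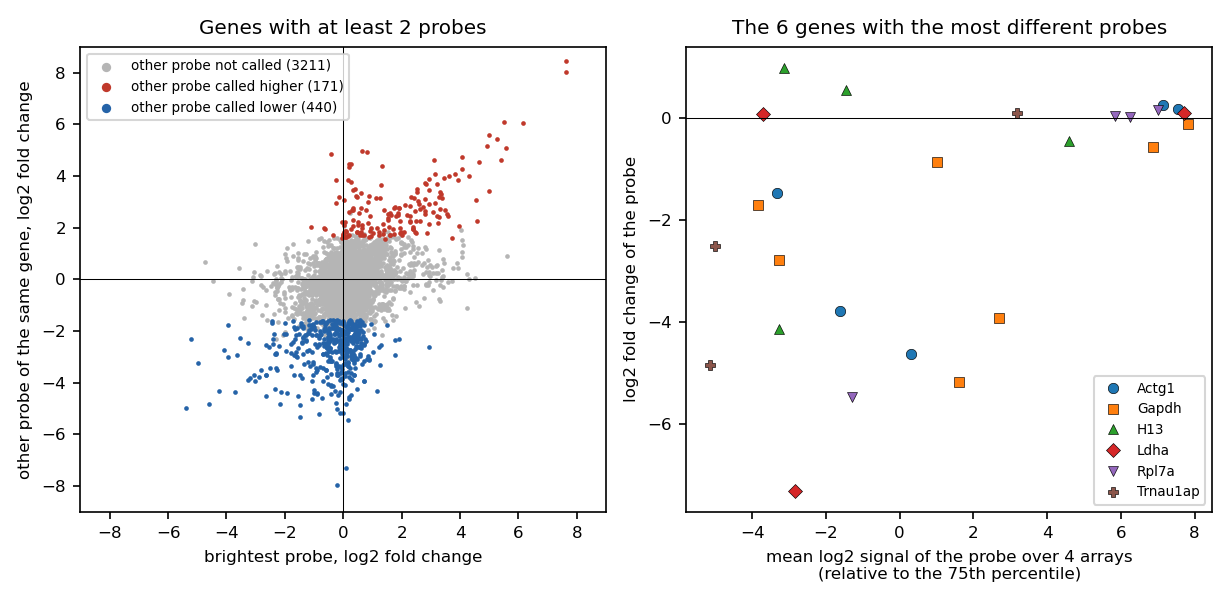
Left, log2 fold change of each further probe (y axis) against that of the brightest probe of the same gene (x axis), for the 3276 genes with at least 2 probes. Right, log2 fold change of each probe (y axis) against its mean log2 signal over the 4 arrays (x axis) for the 6 genes whose probes differed most among genes with at least 3 probes. Blue points below 0 near the center of the left panel are further probes called lower where the brightest was not called, and in the right panel the brightest probes lie near 0 and dimmer ones down to -7.31, a fitted value of a probe at background after differentiation.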

How the data were processed

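Total RNA of the cultures was amplified, labeled with Cy3 and hybridized to Agilent 4x44K arrays. Per the file headers, the deposited scanner intensities were made by the authors with Feature Extraction 11.0.1.1, which subtracts background and detrends each spot but scales nothing between arrays. The authors also deposited log2 values of 30439 probes. The steps that made them are not given in the sources used here, and they served as an alternative. All 4 arrays share a slide and a scan. The labels and array methods give 30 days of differentiation, while the study's results text names an earlier day.

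After removal of control and outlier spots, the log2 intensities of a probe's spots were averaged and scaled by subtracting each array's 75th percentile. Probes were named through RefSeq accessions (GRCm38.p6), which gave 20659 genes. The test took 26695 probes that 2 or more of the 4 arrays measured well above background. The difference was fitted in limma 3.58.1 (R 4.3.3), with 2 residual and 10.29 prior degrees of freedom, and Benjamini-Hochberg adjustment of p ran over all probes. The replicate number was not a term. The probe of highest mean signal stands for its gene. A group in which the probe was well above background on 0 arrays has only a bound, set by the higher of the probe's own signal and the lowest detected signal on each array. Scripts were tested on simulated data. Tables and figures were made with Python 3.11.15, pandas 2.3.3 and matplotlib 3.10.9.

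The 45 lists hold 886 genes, of which 801 were tested. Lists and members were chosen with earlier results of these data known and are described by counts and medians, with no test of a list. Genes named are the 12 highest and 12 lowest changes measured on all 4 arrays, the 8 highest bounds in each direction, genes the study names, the 6 genes with the most different probes among those with at least 3, and list members, by preference those with the largest change. Some genes that this rule takes are not reported here. The promoter motifs were also chosen after the values were seen. Precision is limited by the number of arrays, on which 61.1% to 72.9% of spots were well above background. Alternatives were other normalization, background correction, filters, probe rules, variance settings, tests and call rules, the deposited values, the 2 cabozantinib arrays in the fit, the replicate number as a term, and each array left out, where a lone array was assumed to vary like the other group.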

Additional observations from a re-analysis of the deposited data

How the results depend on the processing

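The number of genes called depended on the processing more than their direction did. Against 2834 genes, 1823 were called with the authors' deposited values, 1325 with no filter on dim probes and 609 with normexp background correction, of which 59.8% were higher in place of 50.9%. All 609 were among the 2834. The probe with the largest absolute change gave 3306 genes, averaging over probes gave 2861 and quantile normalization 2390. The study's criterion of 2-fold and an unadjusted p under 0.05 gave 4976 genes in limma and 843 with the methods' t-test, paired. After Benjamini-Hochberg the methods' t-test, paired, called 0 genes and the unpaired test 0, with 1271 and 3345 genes at an unadjusted p under 0.05. With each array left out in turn the count lay between 1893 and 3504. The deviations of arrays with the same replicate number correlated at -0.52, and a replicate block gave 2160 genes. Whether cultures of the same number were paired cannot be told from this correlation. The arrays also differed in brightness. The 75th percentile of the signal was 625 and 1773 on undifferentiated replicates 1 and 2, and 1095 and 649 on differentiated replicates 1 and 2. With the undifferentiated numbers exchanged, a setting chosen after seeing the data, the block gave 6620 genes. In all 16 limma alternatives 511 genes were called, 312 of them higher, and 1400 were called with each array left out. The median of all genes was 0.11, and it was 0.37 without undifferentiated replicate 1, -0.14 without replicate 2 of that group and -0.05 with normexp.

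Of 178 called genes followed by name, 92 were called in all limma alternatives that tested them. Runx2 had 0.173 with the authors' deposited values and 0.142 with no filter on dim probes. The value with no filter belongs to another Runx2 probe, of higher mean signal, that the filter had left out. With normexp the genes that rose numbered 9 for macrophage markers, 6 for complement, 5 for bone matrix and 3 for interferon, and 1 mitosis gene fell. With the authors' deposited values 5 mitosis genes fell, 5 genes of cholesterol efflux rose and 4 interferon genes rose. The cause of these differences in number was not tested. Where the brightest probe was not called, other probes were called lower more often than higher under each alternative for which this was computed, at 1.13% to 24.7% against 0.134% to 8.30%. Dim probes limit the data, and for 197 genes called higher and 240 called lower no array of the lower group was well above background.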

Other observations

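Families that the lists covered in part or not at all were read by the stem of their symbols. They were chosen after their values were seen and get no test of the family. Receptors for colony-stimulating factors were higher, with log2 fold changes of 3.74 for Csf2rb2, 3.08 for Csf2rb, 2.96 for Csf2ra and 2.84 for Csf1r, all called, and 4 of the 6 genes with this stem rose. Further probes of Csf2rb and Csf2rb2 had -0.41 and -0.05, and with the probes averaged Csf2rb was not called (adjusted p = 0.0894 in limma), nor was Csf1r (0.272). Of 10 Toll-like receptors 4 rose, among them Tlr13 (3.38), Tlr7 (2.94) and Tlr2 (2.15, adjusted p = 0.125 in limma without differentiated replicate 1), while Tlr4, the receptor for lipopolysaccharide, had 1.70 and was not called. Of 20 C-type lectins 8 rose and 1 fell, with Clec4a3 at 4.31, Clec4n at 3.29 and Clec4d at 3.03. Signal regulators of the Rgs family included Rgs18 at 4.79 and Rgs1 at 3.72 among 6 that rose, and Rgs4 fell by 2.53 on the log2 scale (adjusted p = 0.0803 without differentiated replicate 1).

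The cytosolic chaperonin, which folds actin and tubulin, had 5 of 9 genes lower and 0 higher, with a median of -2.30. Cct3 fell by 4.67, Cct4 by 2.57, Cct8 by 2.40 and Cct7 by 2.30 on the log2 scale, whereas without differentiated replicate 2 the adjusted p was 0.0667 for Cct4, 0.234 for Cct8 and 0.09 for Cct7. Cct2 (-1.04) and Cct5 (-0.16) were not called. The granzymes Gzmc and Gzmb fell by 3.48 and 1.94 beside Gzme, and Gzma and Gzmk had 0.18 and -0.08. Gzmb lost its call without any of 3 arrays, with an adjusted p of 0.171 without differentiated replicate 2. Wfdc18, a neighbor in name of Wfdc17, rose by 5.91. The elongation factors Eef2 and Eef1g fell by 2.11 and 3.42 (-1.51 at a further probe of Eef1g, not called), whereas Eef1a1 had 0.25, and Eef2 had an adjusted p of 0.087 without differentiated replicate 2. Near copies in these families may share probes.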
